A study of Mus musculus with 4 samples.

Results

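The 6 genes described here are 6 of 18386 counted in the cortex table: Prnp, which encodes the prion protein, Rpsa, which encodes a protein of the small ribosomal subunit, and the pseudogenes Lamr1-ps1, Gm5900, Gm8822 and Gm8995. They were named because their read counts differed, or in the case of Rpsa because Lamr1-ps1 is named after it, between transgenic and wild-type cortex. Their difference between genotypes is therefore given as a description, and the outcome of a test on it is no support. In the deposited table the symbol matched 1 row exactly (Lamr1-ps1) and 3 rows when case was ignored, so the other rows were found by transcript identifier in the GENCODE M21 annotation (GRCm38). The 6 genes hold 7 of 37539 deposited transcript rows. The name "genotype-exclusive" fits only some of them: with at most 3 counts in each library of one genotype and at least 10 in each library of the other, Lamr1-ps1 and Gm5900 had the pattern, while Gm8822 (9 and 4 counts in the transgenic libraries) and Gm8995 did not.

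The study sequenced total RNA of the cortex of 12-month-old male mice, 2 APPswe/PS1ΔE9 mice (APP) and 2 wild-type mice (WT). The transgenic mice came from a line of B6 origin and the wild-type controls were C57BL/6J mice. The paper does not state that they were littermates, so differences of line and of genotype cannot be told apart. APPswe/PS1ΔE9 mice, a model of Alzheimer's disease, carry a chimeric mouse/human amyloid precursor protein gene with the Swedish mutations together with the second transgene named in the genotype. Both transgenes are driven by the mouse prion protein promoter, so transcripts of the transgene construct and of the mouse's own Prnp locus cannot be told apart where their sequence is the same. Library depth ran from 28525117 counts (APP-3) to 43881196 (WT-1), a count of 3 corresponded to 0.0682 to 0.103 CPM (counts scaled to a common library size), and such limits cover counting error only.

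The cellular prion protein is a glycoprotein held on the outer face of the cell membrane, abundant in neurons, and its misfolded form causes prion disease. It has also been studied as a surface receptor of amyloid-beta oligomers. Rpsa, the laminin receptor 1 or ribosomal protein SA, binds the prion protein in addition to its place in the ribosome, and many processed pseudogenes of it lie scattered in the mouse genome. A processed pseudogene is a copy of a spliced mRNA pasted into the genome, so its reads can resemble those of the parent gene.

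How far reads can be assigned to each pseudogene depends on its sequence, shown here first. For each pseudogene, every window of 100 bases, the read length, was compared without gaps with the transcripts of other genes, and windows with up to 7 mismatches, the setting of the authors' aligner, were counted. Lamr1-ps1 was the exception among the 4: 0 of its 775 windows came within 7 mismatches of a transcript of another gene, with 20 the fewest and 36 the median. It aligned to Rpsa with 71.7% identity over 900 columns. The stretch closest to the coding sequence of Rpsa, 100 bases at chr2:131904518-131904617 on the plus strand, differs at 20 positions, in capitals.

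Lamr1-ps1: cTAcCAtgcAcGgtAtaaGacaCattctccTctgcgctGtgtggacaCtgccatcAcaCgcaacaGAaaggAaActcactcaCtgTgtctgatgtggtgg
Rpsa: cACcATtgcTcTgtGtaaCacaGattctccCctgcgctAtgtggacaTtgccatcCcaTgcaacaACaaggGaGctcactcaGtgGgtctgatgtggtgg

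Gm5900 is the other extreme. It aligned with 99.5% identity to Lamtor3, a scaffold protein of late endosomes and lysosomes, with 2 mismatches in 375 columns, and all 276 windows came within 7 mismatches of it, 136 of them (49.3%) without any. The first 200 bases of Gm5900, at chr7:104950090-104950289 on the minus strand, are set beside the start of the Lamtor3 coding sequence, with the 1 difference in capitals.

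Gm5900: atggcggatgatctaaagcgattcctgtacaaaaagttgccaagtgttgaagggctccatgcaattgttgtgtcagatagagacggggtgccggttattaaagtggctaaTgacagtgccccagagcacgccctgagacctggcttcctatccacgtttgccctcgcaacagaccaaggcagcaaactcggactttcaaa
Lamtor3: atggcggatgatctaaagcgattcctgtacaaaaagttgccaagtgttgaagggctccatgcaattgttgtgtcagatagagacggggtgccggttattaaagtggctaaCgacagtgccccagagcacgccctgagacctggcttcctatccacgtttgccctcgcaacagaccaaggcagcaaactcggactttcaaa

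Gm8822 resembled Actr3, a subunit of the actin-nucleating Arp2/3 complex, with 98.8% identity over 2348 columns, and 2007 of its 2248 windows (89.3%) came within 7 mismatches of another gene's transcript. A typical 200-base stretch at chrX:81821853-81822052, minus strand, differs at 2 positions from the Actr3 coding sequence.

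Gm8822: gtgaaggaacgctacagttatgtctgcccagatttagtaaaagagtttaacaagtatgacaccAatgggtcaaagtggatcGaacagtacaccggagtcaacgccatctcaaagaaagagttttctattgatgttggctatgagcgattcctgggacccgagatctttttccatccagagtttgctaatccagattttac
Actr3: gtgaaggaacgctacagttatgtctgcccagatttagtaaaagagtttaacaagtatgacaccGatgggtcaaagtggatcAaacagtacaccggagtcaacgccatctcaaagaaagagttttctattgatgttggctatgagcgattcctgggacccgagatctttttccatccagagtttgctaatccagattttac

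Gm8995 is an unprocessed pseudogene of the very large interferon-inducible GTPase family, in which Gvin1 is a protein-coding gene. It aligned with 91.9% identity to the pseudogene Gm8979 and with 91.8% to Gvin1, and 5133 of its 7181 windows (71.5%) came within 7 mismatches of another gene's transcript. In 100 bases at chr7:106505716-106505815, minus strand, 7 differ from the Gvin1 coding sequence.

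Gm8995: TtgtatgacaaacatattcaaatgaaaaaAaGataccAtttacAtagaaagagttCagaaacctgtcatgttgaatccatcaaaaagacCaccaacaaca
Gvin1: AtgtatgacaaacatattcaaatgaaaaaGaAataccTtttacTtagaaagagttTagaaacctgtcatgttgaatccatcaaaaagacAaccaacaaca

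**Figure D1:**
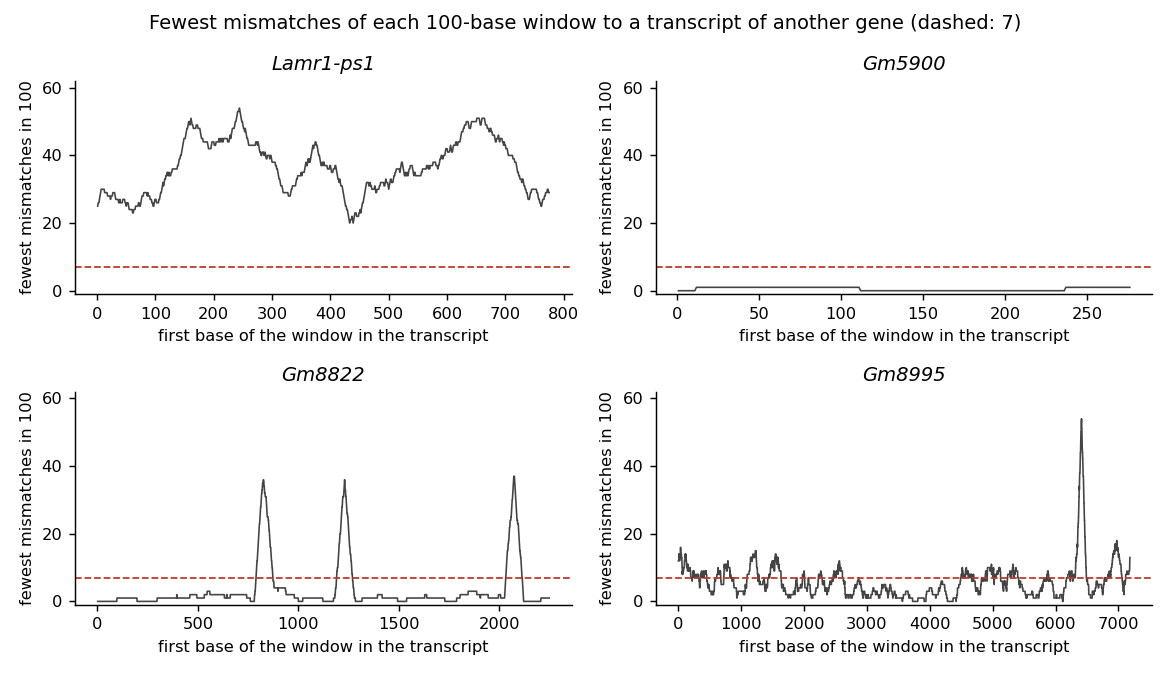
For each 100-base window of the 4 pseudogene transcripts (x axis, position of its first base), the fewest mismatches to a transcript of another gene (y axis), with a dashed line at 7. Lamr1-ps1 stays at 20 or above throughout and Gm5900 at 1 or below. Gm8822 (89.3% of windows) and Gm8995 (71.5%) lie mostly at 7 or below, and their other windows lie above it.

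The counts of Gm5900, Gm8822 and Gm8995 are uncertain for this reason: a read from them could be counted for the similar gene, or the reverse. Rpsa, whose row was deposited under the symbol Gm12113, has copies of up to 99.3% identity in the annotation. The 4 counted genes that aligned to it over at least 500 columns had 66.9% to 74.5% identity. Its windows were not compared, so how far its reads fit other transcripts was not tested. For Lamr1-ps1, no window of the full read length came within the mismatch limit of another gene's transcript. Ungapped reads of that length are therefore not shared in this way with the transcripts compared. The authors' length cut-off also allowed shorter reads, in which the same mismatch limit is less strict. Whether such reads of Lamr1-ps1 fit other transcripts was not tested.

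Prnp itself is protein coding and lies at chromosome 2, 131909928 to 131938429, plus strand. Its transcripts together had 53838 and 50246 counts in the transgenic libraries APP-3 and APP-4, and 23138 and 18967 in WT-1 and WT-2. After scaling by TMM, which corrects for library size and composition, these are 1856 and 1622 CPM in the APP libraries and 527 and 535 CPM in the WT libraries. Both APP libraries lay far above both WT libraries. The fitted log2 fold change of APP over WT was 1.71 (SE 0.0751), from 1739 ± 165 CPM (SD, n = 2) in APP and 530.8 ± 6.03 in WT. In bulk tissue a change in the number of cells of a type and a change in RNA per cell cannot be told apart. Transcripts of the transgene construct with the same sequence as Prnp also cannot be told apart from those of the mouse's own gene.

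The 2 counted transcripts of Prnp differed. Prnp-201 is the protein-coding transcript with 3 exons of 76, 98 and 2010 bases. Its coding sequence of 765 bases, 254 codons before the stop, begins at base 185 and lies in the last exon. Prnp-201 had 53800, 50198, 23079 and 18918 counts in APP-3, APP-4, WT-1 and WT-2. Prnp-202, a non-coding processed transcript of 319 bases, has its own 2 last exons in the second intron of Prnp-201. Its counts were 38, 48, 59 and 49 in the same order, which is 1.31, 1.55, 1.34 and 1.38 CPM. The APP and WT libraries overlapped for Prnp-202, with means of 1.43 ± 0.170 CPM in APP and 1.36 ± 0.0281 CPM in WT (SD, n = 2 each). Prnp-202 made up 0.0705% and 0.0955% of the gene's counts in APP and 0.255% and 0.258% in WT. Of its 220 windows, 74 come within 7 mismatches of Prnp-201, 88 (40.0%) of a transcript of another gene, and 113 of neither. Reads of other genes may therefore be among its counts, and only a part of these can be set against the coding transcript.

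**Figure D2:**
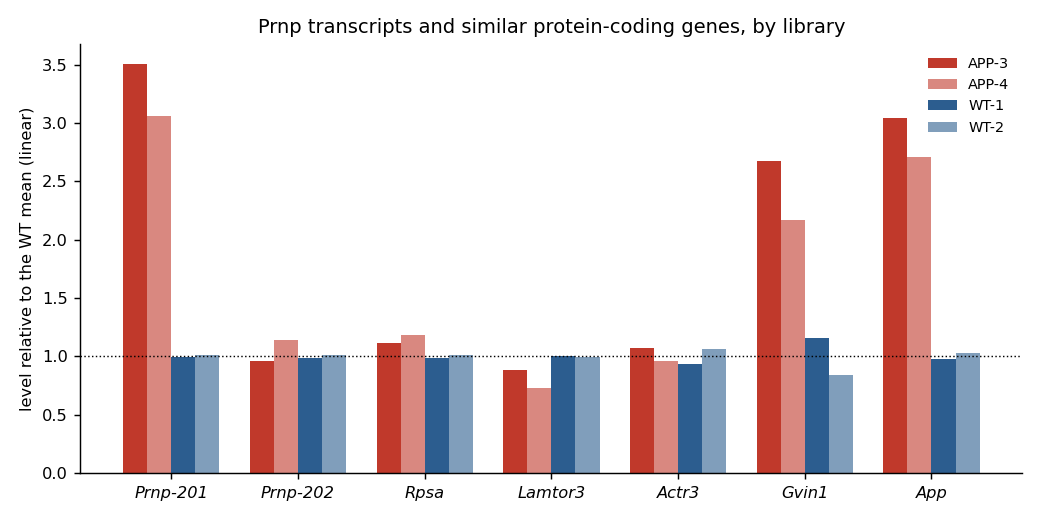
Level of each transcript or gene in each library divided by the mean of the 2 WT libraries (y axis, linear, from 0), for the 2 Prnp transcripts, Rpsa, Lamtor3, Actr3, Gvin1 and App. Prnp-201, Gvin1 and App stand above the WT level in both APP libraries, while Prnp-202 lies below it in APP-3 and above it in APP-4.

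The 250 bases before the RefSeq start of Prnp (chr2:131909678-131909927, GRCm38.p6, plus strand) are shown because this promoter is also the one in front of both transgenes. Capitals mark the 2 GC boxes, searched as GGGCGG on both strands. Of 32851 promoters of the same length, 32.7% had at least 1 and 16.7% at least 2, and 58.8% of the Prnp bases were G or C.

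Prnp promoter: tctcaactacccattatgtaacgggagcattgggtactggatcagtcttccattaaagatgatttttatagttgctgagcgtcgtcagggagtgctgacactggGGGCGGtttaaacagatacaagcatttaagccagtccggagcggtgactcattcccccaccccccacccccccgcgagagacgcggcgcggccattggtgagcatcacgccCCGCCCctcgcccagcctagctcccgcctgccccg

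Lamr1-ps1, a processed pseudogene of 874 bases, lies on the plus strand at chromosome 2, 131904086 to 131904959, and ends 4968 bases before Prnp, with no other counted gene between them. Its count was 402 in APP-3, 412 in APP-4 and 0 in both WT libraries, so the 2 genotypes were fully separated. Whether the transgene construct holds this stretch was not tested, because the sequence of the construct was not available. Transcripts of the construct cannot be told apart from those of the mouse's own locus where their sequence is the same. Against a limit of 3 counts per WT library the level in APP was at least 178-fold higher. In APP its counts were 6.45% and 5.84% of those of Rpsa.

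Rpsa lies on another chromosome, at chromosome 9, 120127689 to 120132369, and was counted at similar levels in both genotypes. It had 6237, 7054, 8365 and 6932 counts in APP-3, APP-4, WT-1 and WT-2, or 215, 228, 190 and 196 CPM. The APP libraries lay above the WT libraries by a small margin, with a log2 fold change of 0.20 (SE 0.0651). In the M21 annotation, 47 genes aligned to Rpsa over at least 500 columns, 4 of them counted. These include the pseudogenes Gm16228 and Gm17981. Gm16228 had 9, 15, 16 and 8 counts (adjusted p = 0.843 in edgeR's quasi-likelihood test), and Gm17981 had 27, 33, 29 and 29 (adjusted p = 0.672).

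Gm5900, on chromosome 7, is a processed pseudogene in M21 and was deposited as protein coding. Its counts were 45 (APP-3) and 60 (APP-4), with 1 in each WT library. The ratio of pooled counts, per effective library size, was 69.5, with a 95% counting interval (Clopper-Pearson) of 18.8 to 581. The gene it resembles, Lamtor3, had 681, 599, 1175 and 942 counts, which is 23.5, 19.3, 26.7 and 26.6 CPM, and its log2 fold change of -0.32 (SE 0.101) did not pass edgeR's quasi-likelihood test (adjusted p = 0.234). The sum of both, a choice made after the data were seen, was in APP 0.868 times that in WT. Lamtor3 makes up most of this sum, so its direction is that of Lamtor3.

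Gm8822, on the X chromosome, was the member that was lower in APP. Its counts were 9 (APP-3) and 4 (APP-4) against 667 (WT-1) and 291 (WT-2), and the WT libraries differed from each other by 15.2 against 8.21 CPM. The fitted log2 fold change was -5.74 (SE 0.444). Its counts were 0.168% and 0.0779% of those of Actr3 in APP and 9.41% and 4.49% in WT. Actr3 itself had 5352, 5129, 7089 and 6477 counts, or 184, 166, 161 and 183 CPM, with overlapping genotypes (log2 fold change 0.03, SE 0.0839, adjusted p = 0.948 in edgeR's quasi-likelihood test). In the sum of both, again a choice made after the data were seen, APP was at 0.954 times the WT level, with 185, 166, 176 and 191 CPM in the 4 libraries, and most of these counts are those of Actr3.

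Gm8995 had 152, 144, 91 and 49 counts in APP-3, APP-4, WT-1 and WT-2, or 5.24, 4.65, 2.07 and 1.38 CPM. The genotypes did not overlap, and the log2 fold change was 1.5 (SE 0.223). It was counted in both genotypes, so its difference is one of degree. In each library its counts were 30.2% to 39.5% of those of Gvin1.

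**Figure D3:**
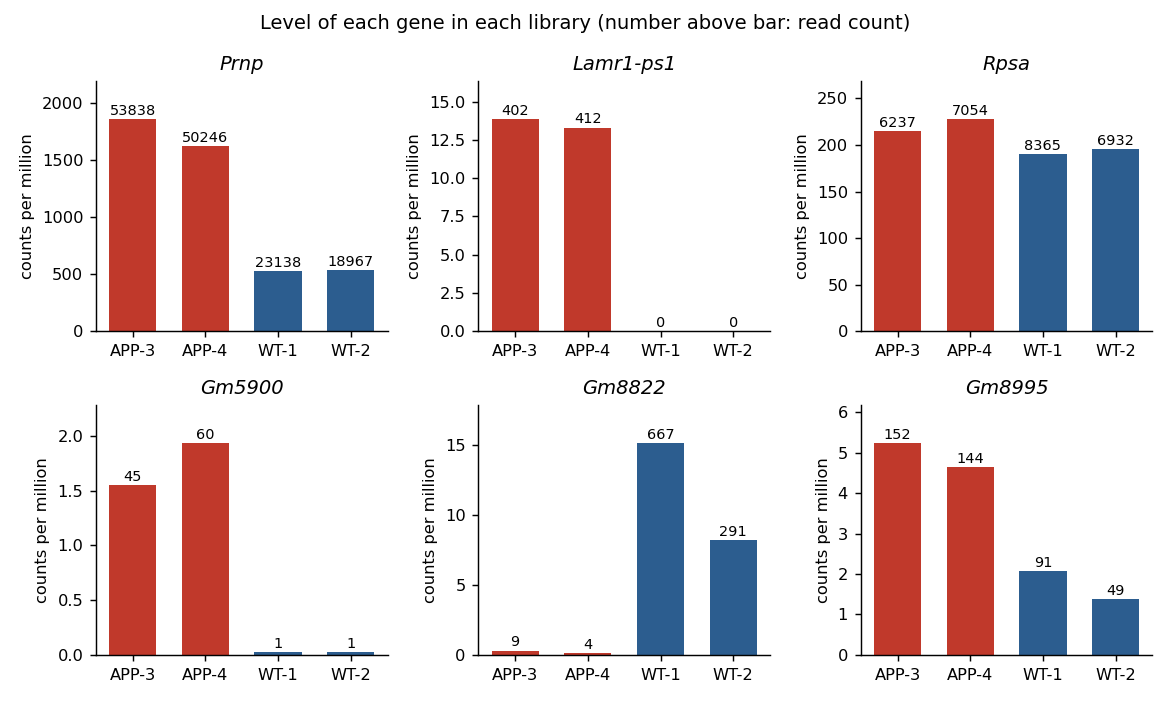
CPM after TMM scaling (y axis, linear, from 0) of the 6 genes in the 2 APP libraries (red) and the 2 WT libraries (blue), with the read count above each bar. Prnp, Lamr1-ps1, Gm5900 and Gm8995 are higher in both APP libraries, Gm8822 is higher in both WT libraries, and Rpsa differs little.

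Per kilobase of transcript, the order of levels changed with genotype. In APP, Prnp-201 (796 ± 75.7 CPM per kb, SD, n = 2) came first, followed by Rpsa (114 ± 4.66), Lamr1-ps1 (15.5 ± 0.448), Gm5900 (4.65 ± 0.728) and Prnp-202 (4.48 ± 0.532), with Gm8995 (0.679 ± 0.0573) and Gm8822 (0.0936 ± 0.0546) last. Gm5900 and Prnp-202 overlapped between libraries. In WT, Prnp-201 (242 ± 2.75) and Rpsa (99.6 ± 1.90) kept the first places, and Gm8822 (4.98 ± 2.10) and Prnp-202 (4.27 ± 0.0880) came next and overlapped. Gm8995 (0.237 ± 0.0669), Gm5900 (0.0680 ± 0.0103) and Lamr1-ps1 (0) were last.

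Over all features, 162 of 18386 (0.881%) were called with edgeR's quasi-likelihood test at an adjusted p (false discovery rate, FDR) below 0.05 and a fold change of at least 1.5. Higher calls made up 0.843% of all features and lower calls 0.0381%. Of the 6 members 4 were called higher and 1 lower, which the choice of members fixes. Among 857 pseudogene features 5 were called, 0.583%, and 4 of the 5 are the pseudogenes described here. App, which shares sequence with one of the transgenes, had a log2 fold change of 1.52 (adjusted p = 2.11e-05 in edgeR's quasi-likelihood test). Its level was 2679 and 2388 CPM in APP and 857 and 905 in WT. Transcripts of the transgene and of the mouse's own App cannot be told apart where their sequence is the same. For the reference genes Gapdh (-0.12) and Actb (0.00) no change was called.

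The question whether genes near Prnp moved with it was asked with genes chosen by position, with the member Lamr1-ps1 left out. Of 36 other counted genes within 1 Mb of Prnp, 0 were called, against 0.881% of all features. At an unadjusted p below 0.05 there were 4 of 36, against 12.1% of all features, at FDR below 0.05 without the fold cut-off 0, and DESeq2, edgeR's exact test and its likelihood ratio test each called 0. Their log2 fold changes ran from -0.79 to 0.96 with a median of -0.05, and 16 were above 0. The nearest counted genes upstream, Lamr1-ps1 aside, were the long non-coding RNA 5330413P13Rik (-0.52), Gm14285 (-0.37) and Adra1d (-0.49), an adrenergic receptor. Gm14285 is annotated as antisense and is uncertain because counting by strand is not stated. Those downstream were Rassf2 (0.03), a Ras association domain protein, Slc23a2 (-0.06), a vitamin C transporter, and Tmem230 (0.04). None of these 6 passed edgeR's quasi-likelihood test, Adra1d being lowest with an adjusted p of 0.174. Without library APP-4, 1 neighbour was called, Spef1, a sperm flagellar protein gene with 58, 84, 166 and 115 counts in the 4 libraries. The nearest counted gene upstream of the pair lies 56402 bases before Lamr1-ps1 and the nearest counted one downstream 50985 bases after Prnp.

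**Figure D4:**
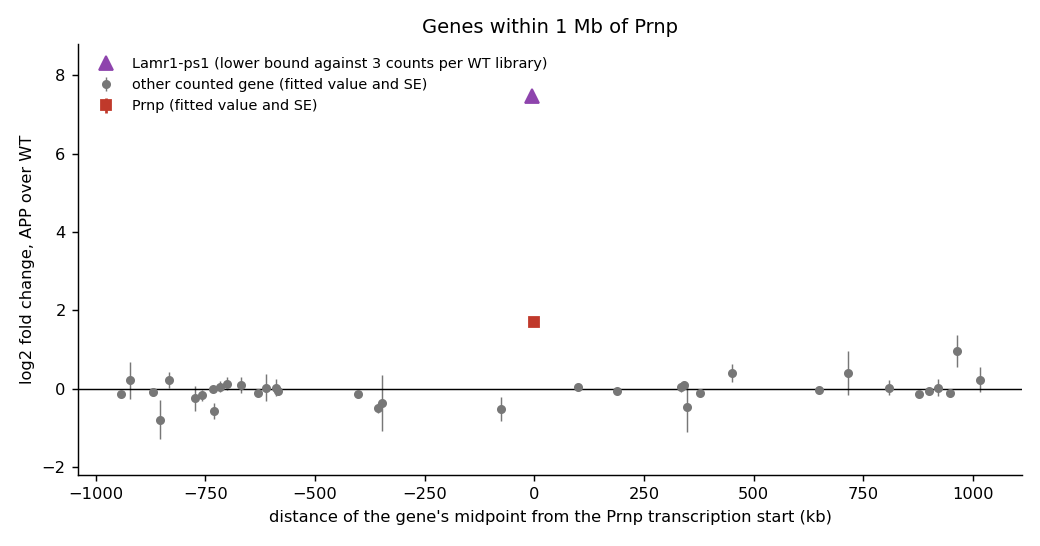
Fitted log2 fold change of APP over WT with its standard error (y axis) for the 36 other counted genes within 1 Mb of Prnp against the distance of their midpoint from the Prnp start (x axis, kb), with Prnp itself (square) and the lower bound of Lamr1-ps1 (triangle). The other genes spread around 0, from -0.79 to 0.96, while Prnp lies at 1.71.

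The same count was made around the other loci. Within 1 Mb, 0 of 33 genes near Gm5900, 0 of 3 near Gm8822 and 1 of 23 near Gm8995 were called by edgeR's quasi-likelihood test, with 8, 1 and 8 at an unadjusted p below 0.05, against 12.1% of all features. The windows of Gm5900 and Gm8995 share 16 genes, 2 of them with an unadjusted p below 0.05, which are in both counts. The 8 near Gm5900 include Trim34a, Trim5, Trim30a and Trim30d, Trim genes that lie close together. Whether reads of these Trim genes were counted for one another was not tested, so the 8 may not be independent. Those near Gm8995 include Gvin1, Gm8979, Gm18853, Gm4759 and Gm1966, which resemble it in sequence. Their reads may have been counted for one another, so the 8 near Gm8995 cannot show whether neighbours moved with it. Over the 3 loci DESeq2 called 3 genes (Gvin1, Gm4759 and Trim30a), and edgeR's exact and likelihood ratio tests each called 6 (these 3 with Gm18853, Gm8979 and Syt9). The 1 gene was Gvin1, which had 422, 365, 277 and 162 counts, higher in both APP libraries (log2 fold change 1.27, SE 0.179, adjusted p = 0.0156 in edgeR's quasi-likelihood test). Gvin1 is also the gene that Gm8995 resembles. Trim30a, a regulator of innate immune signalling near Gm5900, had 103, 154, 96 and 62 counts and missed the threshold of the quasi-likelihood test (1.11, adjusted p = 0.0655 in edgeR), while DESeq2, the exact test, the likelihood ratio test, the fit on transcripts and the fits without APP-3 or without APP-4 called it. Near Gm8822 the counted genes were Tmem47 (0.31) and the pseudogenes Gm14740 (0.06) and Gm14741 (-2.15), none of them called.

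Gm8995 has 10 relatives in the annotation that align over at least 1000 columns, and 6 of them were counted. All 6 had a fitted log2 fold change above 0. Gvin1 was called by edgeR's quasi-likelihood test, Gm4759 also by DESeq2, and Gm18853, Gm4759 and Gm8979 by the exact and likelihood ratio tests. The others were low: Gm8979 had 10, 14, 4 and 0 counts, Gm4759 12, 40, 3 and 2, Gm1966 22, 2, 2 and 3, Gm18853 49, 34, 24 and 11, and 9130208D14Rik 11, 21, 7 and 12. Reads of these similar genes and of Gm8995 may have been counted for one another, so their counts may not be independent of it. Of the microglial markers 12 of 12 had a fitted value above 0, against 9145 of 18386 features. Of these markers 7 were called, against 0.881% of all features. The markers summed to 458 to 562 CPM in APP against 279 to 281 in WT. Their part in the level of Gm8995 and Gvin1 was not tested.

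Rpsa lies among genes of which 3 of 32 within 1 Mb were called, all higher in APP, against 0.843% of all features called higher. Cx3cr1, the fractalkine receptor of microglia, rose by a log2 fold change of 0.72 (adjusted p = 0.00646 in edgeR's quasi-likelihood test), Acaa1a, a peroxisomal thiolase, by 0.72 (adjusted p = 0.0276) and Ulk4, a kinase, by 0.90 (adjusted p = 0.0293). Mobp, a myelin protein gene, had 0.43 (adjusted p = 0.0467) and stayed below the fold cut-off. Of the oligodendrocyte markers 5 of 5 had a fitted value above 0, against 9145 of 18386 features, and 1 was called, against 0.881%. The markers summed to 1267 to 1435 CPM in APP against 927 to 1043 in WT, and their part in the level of Mobp was not tested. Cx3cr1 is one of the microglial markers given above. The snoRNAs Gm24044 and Gm26448 lie within Rpsa, with log2 fold changes of -0.21 and -0.06, neither called.

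Rpsa was set beside 31 counted genes of the small ribosomal subunit list. Of these 0 were called in edgeR's quasi-likelihood test, which is near the 0.881% of all features. Without the fold cut-off the number was also 0, against 1.14% of all features. An unadjusted p below 0.05 was found for 18, against 12.1% of all features. All 31 fitted log2 fold changes lay above 0, from 0.04 (Rps16) to 0.36 (Rps26), with a median of 0.21, against a median of 0.00 over all features. The 0.20 of Rpsa lay close to that median. DESeq2, the exact test and the likelihood ratio test also called 0.

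The prion protein list held proteins known to bind, cleave, resemble or signal with the prion protein, 28 of 30 counted (Prnd, encoding the related protein doppel, and Slc39a5 were not in the table). Of the 28, 0 were called, which is near the 0.881% of all features. Without the fold cut-off 1 had an FDR below 0.05, against 1.14% of all features. The same 1 gene had an unadjusted p below 0.05, and DESeq2, the exact test and the likelihood ratio test called 0. This was Clu, clusterin, a secreted chaperone, with a log2 fold change of 0.41 (SE 0.0640, adjusted p = 0.0236 in edgeR's quasi-likelihood test), from 9515, 10654, 11229 and 8839 counts. Clu is also made by astrocytes. Of their markers 5 of 5 had a fitted value above 0, against 9145 of 18386 features, and 2 were called, against 0.881%. These markers summed to 4046 to 4361 CPM in APP against 3239 to 3594 in WT. Their part in the level of Clu was not tested. The list had 11 of 28 log2 fold changes above 0 and a median of -0.04.

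By role, Clu was the only one of the 28 past the FDR threshold. The family members Sprn, encoding shadoo, Slc39a6 and Slc39a10, zinc transporters, lay between -0.18 and -0.04. The 12 surface partners and receptors, among them the neural cell adhesion molecule gene Ncam1 (0.08), the endocytic receptor gene Lrp1 (0.11), the glutamate receptor gene Grm5 (-0.06) and Adgrg6 (-0.32), ran from -0.32 to 0.11. The 4 proteases that shed or cut membrane proteins, Adam10 (0.04), Adam17 (0.07), Adam9 (-0.04) and Bace1 (-0.03), and the 5 signalling genes, such as the kinase gene Fyn (0.12), did not pass the test either.

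The genes whose pattern over the 4 libraries was most like that of Prnp were found by the Euclidean distance of log2 CPM centred on each gene's mean, over 14666 genes with a mean of at least 1 CPM. The closest were C3ar1 (distance 0.0202), a complement receptor, Trem2 (0.155), a microglial receptor, App (0.192), Osmr (0.202), the oncostatin M receptor, and Tlr2 (0.280), a pattern recognition receptor. The median distance was 1.73. The ranking compares only 4 values per gene and is given as a description.

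The pattern of at least 10 counts in each library of one genotype and at most 3 in each of the other was found in 28 features, 14 of them higher in APP and 14 in WT. Of these 7 were pseudogenes, 0.82% of the 857 pseudogene features, and the others were 0.12% of the remaining features. Lamr1-ps1 had the highest counts of the 28 features, 402 and 412 in the APP libraries, followed by Cst7, a cystatin of microglia, with 328 and 384. The other features higher in APP had at most 102 counts in a library, and those higher in WT at most 25.

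Neuropeptide and hypothalamic genes were also among these 28, with Avp at 18, 102, 2 and 0 counts, Oxt at 12, 22, 0 and 1, and Sim1 at 29, 34, 2 and 0. The hypothalamus markers, 5 of 6 counted, summed to 5.72 and 8.91 CPM in APP and 1.23 and 0.790 CPM in WT. All 5 had a fitted value above 0, against 9145 of 18386 features, and 2 were called, against 0.881%. Avp, Oxt and Sim1 are among these markers, and the list was written with earlier results of these data known. These counts are therefore a description. Cortical excitatory neuron markers summed to 487 and 533 CPM in APP and 604 and 608 CPM in WT, all 6 counted, with 0 called. Striatum markers separated the APP libraries from each other, with 134 CPM in APP-3 and 293 in APP-4, around the 197 and 219 CPM of WT. Whether a difference in dissection had a part in any of the members' levels was not tested.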

How the data were processed

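Whole transcriptome sequencing was analysed for 2 APP and 2 WT cortex libraries (28525117 to 43881196 counts). The authors depleted ribosomal RNA, sequenced paired strand-specific reads, aligned them to Ensembl mouse RNA with FANSe2 allowing 7 mismatches, and deposited raw read counts per transcript. The Ensembl release and the treatment of reads that fit several transcripts are not given in the sources used here. The submitters' processing notes name CASAVA 1.8, edgeR and the human build hg19, while the transcript identifiers are those of mouse. The authors also deposited 4 columns of log2 CPM per library, which were not used, and 4 columns of their own comparison (log2 fold change, log2 mean CPM, p-value and FDR), which were not used either. The p-values measure only the spread between these 4 libraries.

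Counts of all transcripts of a gene, taken from GENCODE M21 by transcript identifier (98.2% matched), were added up. Features with under 10 counts over the libraries would have been removed (0 were). The fit was edgeR 4.0.16 (R 4.3.3, limma 3.58.1), TMM, quasi-likelihood, Benjamini-Hochberg over 18386 features. DESeq2 1.42.0 was an alternative. Standard errors are the absolute log2 fold change over the square root of F. The fit was checked on simulated counts of 18379 genes for this comparison, where 89 of 100 genes changed 4-fold, 74 of 99 changed 2-fold and 9 of 18180 unchanged genes were called. Sequences were compared with blastn 2.17.0 and with 100-base ungapped windows against all M21 transcripts similar by blastn, counted or not, and promoters came from RefSeq (GRCm38.p6). Python 3.11.15, pandas 2.3.3, numpy 2.4.6, scipy 1.17.1 and matplotlib 3.10.9 were used.

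The members and lists were chosen with earlier results of these data known. Named genes were the members, the nearest 3 counted genes on each side of each member and called genes within 1 Mb, the gene of each pseudogene's best match, copies of Rpsa, the 5 genes most like Prnp, App, Gapdh and Actb, and members of the lists with the largest differences. Further genes were named for their similarity to Gm8995 or for their counts, after their values were seen. Numbers tie the WT columns to their mice; the APP columns could be assigned to a genotype but not to a mouse. Some genes that this rule names are not reported here.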

Additional observations from a re-analysis of the deposited data

How the results depend on the processing

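The number of called features, 162, was 354 with edgeR's exact test, 391 with its likelihood ratio test and 303 with transcripts in place of gene sums. It ran from 134 to 601 when 1 library was left out, with the highest value without APP-3 and 478 without APP-4, and the remaining library of a genotype was then assumed to vary like the others. The called neighbours of the pseudogenes elsewhere, 1 in the main analysis, were 3 with DESeq2, 6 with the exact test, 6 with the likelihood ratio test, 4 with transcripts and 0 within 200 kb, and ran from 1 to 6 with 1 library left out (6 without APP-4, 4 without APP-3, 2 without WT-1). Gvin1 was called under each of these except the 200 kb window, which does not reach it. The called neighbours of Prnp ran from 0 to 1 with 1 library left out. In the prion protein list 1 transcript, of Dpp6, was called when transcripts replaced gene sums. For Prnp the log2 fold change was 0.075 for transcript Prnp-202 taken by itself and ran from 1.61 to 1.81 with 1 library left out. The bound for Lamr1-ps1 ran from 160 to 199, the ratio of Gm5900 from 61.6 to 76.9, and the log2 fold changes of Rpsa from 0.16 to 0.24, of Gm8822 from -6.48 to -5.22 and of Gm8995 from 1.26 to 1.84 with 1 library left out. The sums with the similar gene, an alternative added after the data were seen, gave a ratio of 0.868 for Gm5900 with Lamtor3 and a log2 fold change of -0.068 for Gm8822 with Actr3, and the similar gene makes up most of each sum. With 1 count per library in place of 3, 8 features had the genotype-exclusive pattern, and 46 transcripts had it when transcripts replaced gene sums. At 2 mismatches in place of 7, the share of Gm8995 windows that fit another gene was 26.1%. A minimum of 10 counts in every library removed Lamr1-ps1, Gm5900 and Gm8822, which then have no value, and no filter left the features as they were. No paired analysis was possible because the APP columns carry numbers that match no label. Beside the alternatives named here the values kept their direction, and the cause of the changes was not tested.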

Other observations

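Besides Lamr1-ps1 and Gm5900, 5 pseudogenes had at least 10 counts in each library of one genotype and at most 3 in each of the other, and they were named after their values were seen. Gm4759 was higher in APP, with 12 and 40 counts against 3 and 2. Gm5874, Gm12691, Gm13542 and Gm13233 were higher in WT. Gm5874 was not counted in either APP library and had 16 and 17 counts in WT, and its best match among counted genes was Tsen15, a subunit of the tRNA splicing endonuclease, with 98.8% identity. Gm13233 had 0 and 2 against 17 and 17 and matched Ppp2r5a, a regulatory subunit of protein phosphatase 2A, with 95.4% identity. The match of Gm13542 (Grb2, 89.9%) was less close, and this pseudogene had 2 and 1 counts against 12 and 14. Gm12691 had 3 and 2 against 11 and 10.

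The protein-coding genes Tsen15, Ppp2r5a and Grb2 had far more counts than the pseudogenes that resemble them. Tsen15 was at 17.1 and 16.3 CPM in APP and 15.3 and 16.0 CPM in WT, and Ppp2r5a at 71.1 and 70.4 against 73.7 and 79.2. Neither was called in edgeR's quasi-likelihood test, nor was Grb2 (log2 fold change 0.01).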
